A study of Mus musculus with 13 samples.

Results

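The genes described here are 10 genes of pericyte recruitment and of mural cells, read by symbol from the RNA-Seq counts of all 13 libraries of the study. They are Pdgfb, Pdgfrb, Pdgfra, Cspg4, Rgs5, Acta2, Des, Notch3, Anpep and Abcc9. All 10 were listed, among 24984 genes in the tumor tables and 24421 in the sprout tables, and all 10 passed the filter on low counts in both sets. Pericytes and vascular smooth muscle cells, together the mural cells, wrap the endothelial tube. Sprouting endothelial cells (ECs) secrete PDGF-B, the product of Pdgfb, and mural cells carry its receptor, the product of Pdgfrb, so ligand and receptor are normally made by different cells. In RNA from sorted ECs, Pdgfb is thus known mainly as an endothelial transcript, while the receptor and the mural markers belong to cells that an endothelial sort is meant to leave out.

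The tumor ECs were sorted as CD31+ and CD105+ cells, 100 cells per library, from orthotopic tumors of E0771, a mouse mammary carcinoma line. In the Apelin-depleted group, tumor cells carrying shApln grew in Apln-/- mice (3 libraries). In the Apelin wild-type group, tumor cells carrying shRenilla grew in wild-type mice (6 libraries). All mice were of the strain C57BL/6J, spelled C57BL6/J in the sample labels. Apelin was thus removed from tumor cells and host together, and the short hairpin differed with the genotype. The sprout ECs were sorted as CD31+ cells from embryoid bodies (EBs) of mouse embryonic stem cells on C57BL/6x129, all grown with VEGFA164 at 30 ng/mL. A gene-trap cassette stood in the Apln gene in the sense orientation (Apln STOP, 2 libraries) or had been turned to antisense by Cre (Apln GO, 2 libraries). Both are sister lines, and by the study's legends the STOP EBs received DMSO and the GO EBs received Apelin, so the genotype and the added peptide cannot be told apart. Nothing in the labels says whether libraries of a group came from separate animals or cultures, so the p-values measure the spread between these libraries only.

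Total counts lay between 4661044 and 14455093 in the tumor libraries and between 12327030 and 16804071 in the sprout libraries. Values are given as CPM, counts scaled to the TMM-normalized library size, and 3 counts in a tumor library were worth between 0.21 and 0.64 CPM. Apln was at 12.1, 8.51 and 2.44 CPM in the Apelin-depleted libraries against 416 to 1033 CPM in the Apelin wild-type libraries. In the sprouts it was at 66.1 and 80.2 CPM in the libraries labelled STOP and at 58.2 and 65.9 CPM in those labelled GO, so its level did not go down with the STOP label. The trap sits in an intron, and a count per gene does not show which exons the reads came from, so this level is no check of the labels, whose names are used below.

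Cell type markers set the frame for the mural cell genes. The summed level of 12 endothelial markers lay between 8122 and 14740 CPM in the tumor libraries, with no marker at 0 in any library. In the sprouts it was 644 and 904 CPM under STOP and 2693 and 2582 CPM under GO. Tumor and sprout libraries were made with different kits and scaled separately, so levels across them are only set side by side. Within the sprouts, both STOP libraries had the lower endothelial level. The summed level of 6 pluripotency markers was 4472 and 4481 CPM under STOP against 1606 and 2709 CPM under GO, and at most 5.67 CPM in any tumor library. The 10 fibroblast markers summed to 6331 CPM in Apelin wild-type replicate 2, the library where they were highest, and to 57.3 to 646 CPM in the other 8 tumor libraries.

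**Figure D1:**
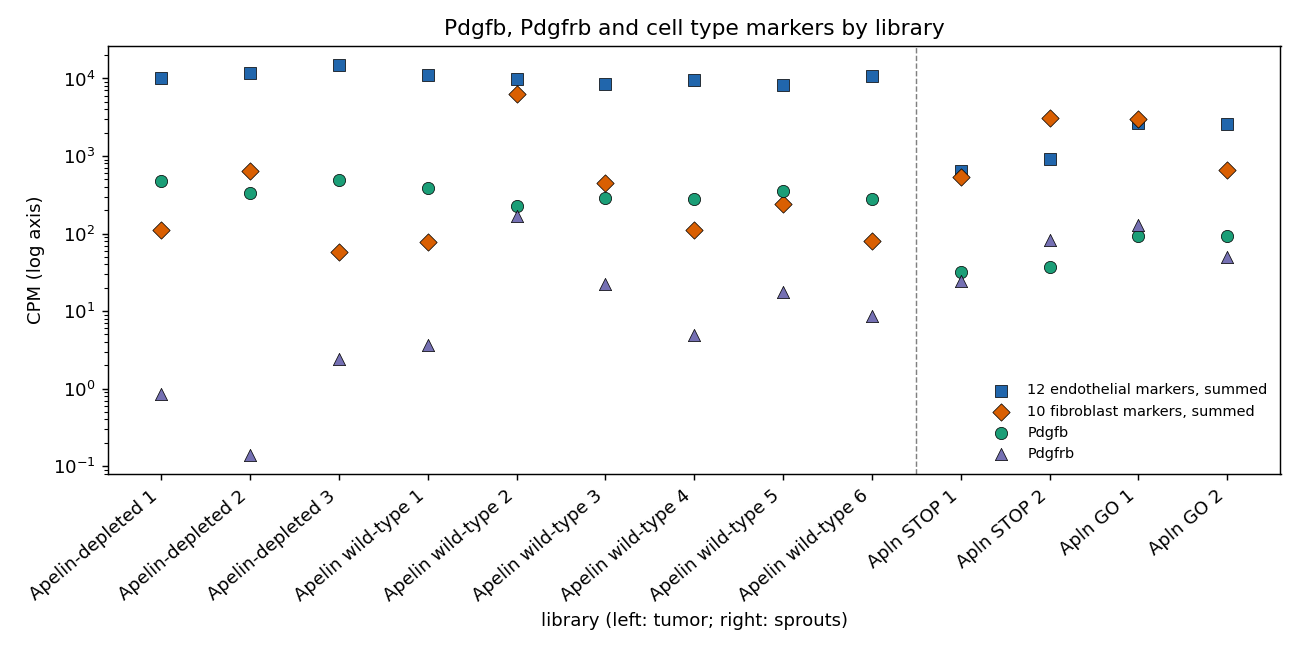
CPM on a log axis of Pdgfb (circles), Pdgfrb (triangles), the summed 12 endothelial markers (squares) and the summed 10 fibroblast markers (diamonds) in each of 13 libraries, tumor on the left and sprouts on the right. In the tumor libraries Pdgfb stays between 226 and 497 CPM while Pdgfrb spans 0.141 to 168 CPM and is highest, with the fibroblast markers, in Apelin wild-type replicate 2.

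The ligand gene Pdgfb was abundant and even in tumor ECs. Its locus is chr15:79995874-80014977 on the minus strand of GRCm38 (mm10). It was at 473, 333 and 497 CPM in the Apelin-depleted libraries, and in the Apelin wild-type libraries the lowest value was 226, the median 281 and the highest 392 CPM. Apelin-depleted replicates 1 and 3 were the highest of the 9 libraries, and replicate 2 lay within the wild-type range, so the groups overlapped. Means were 434 ± 88.8 CPM (SD, n = 3) and 302 ± 60.4 CPM (SD, n = 6). The log2 fold change of 0.53 (SE 0.27) did not pass the test (edgeR quasi-likelihood, adjusted p = 1.0). From the lowest to the highest of the 9 libraries Pdgfb changed 2.2-fold, close to the 1.78-fold of Pecam1, which encodes CD31.

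The receptor gene Pdgfrb (chr18:61045150-61085061, plus strand) varied far more. It was at 0.85, 0.14 and 2.44 CPM in the Apelin-depleted libraries, which are 5, 2 and 20 counts. Among the Apelin wild-type libraries the lowest value was 3.65, the median 13 and the highest 168 CPM. Every Apelin-depleted library was below every wild-type library, and groups did not overlap for 1 of the 10 genes, Pdgfrb, against 2.33% of all genes tested. Apelin wild-type replicate 2 alone held 73.6% of the summed CPM of Pdgfrb over the 9 libraries.

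By edgeR the log2 fold change of Pdgfrb was -5.05 (SE 1.57, edgeR adjusted p = 0.914), so it was not called. Leaving out Apelin wild-type replicate 2 gave -3.31. DESeq2 called it, at -5.06 with an adjusted p of 0.0032, and without Apelin wild-type replicate 2 at -3.32 with an adjusted p of 0.0434. DESeq2 called 1 of the 10 genes lower, against 0.461% of all genes. A call means an adjusted p under 0.05 and a log2 fold change beyond 1 in either direction. By edgeR 0 of the 10 genes were called in tumor ECs, against 0.00765% of all genes, and 1 of the 10, Pdgfrb, had an unadjusted p under 0.05. These are bulk values, in which fewer cells of a type and less RNA per cell cannot be told apart.

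The other receptor of the family, Pdgfra, is a marker of fibroblasts more than of pericytes (chr5:75152292-75198215, plus strand). It was at 12.6, 0.07 and 0.12 CPM under Apelin depletion and from 1.46 to 19.8 CPM, median 6.11, in the wild-type libraries. Apelin-depleted replicate 1 reached into the upper part of the wild-type range, and the other Apelin-depleted libraries held 1 count each. Its log2 fold change was -1.09 (SE 1.38, edgeR adjusted p = 1.0). The size of this difference rested on Apelin-depleted replicate 1, without which it was -6.39 (edgeR adjusted p = 0.567), and over all left-out libraries it ranged from -6.39 to -0.52.

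The surface and signalling markers of pericytes were scattered over the tumor libraries. Cspg4 (chr9:56865033-56899870, plus strand) encodes the proteoglycan NG2. It was at 9.18, 0 and 0.24 CPM under Apelin depletion and from 0 to 17.7 CPM, median 4.90, in the wild-type libraries, with 0 counts in 3 of the 9. Rgs5 (chr1:169655501-169695813, plus strand) encodes a regulator of G-protein signalling that is abundant in pericytes. It was at 10.9, 0.21 and 18.2 CPM in the Apelin-depleted libraries, and among the wild-type libraries it ran from 2.55 to 126 CPM with a median of 5.85. Rgs5 was high in Apelin wild-type replicates 2 and 5, at 106 and 126 CPM, and at or under 18.2 CPM in the other 7 libraries. Its log2 fold change was -2.10 (SE 1.74) and that of Cspg4 was -1.05 (SE 1.81), both with an edgeR adjusted p of 1.0. With the replicate number as a block they were -0.42 for Rgs5 and, with the direction turned, 0.62 for Cspg4. Without Apelin wild-type replicate 5 the log2 fold change of Rgs5 was -1.35. Without Apelin-depleted replicate 1 that of Cspg4 was -5.69 (edgeR adjusted p = 0.82), and over all left-out libraries it ranged from -5.69 to -0.42.

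Notch3 (chr17:32120820-32166852, minus strand) encodes the Notch receptor of vascular smooth muscle. It was at 7.48, 4.71 and 0 CPM under Apelin depletion and from 0.29 to 23.3 CPM, median 5.14, in the wild-type libraries. The log2 fold change of Notch3 was -0.85 (SE 1.35) over all libraries and -0.01 without Apelin wild-type replicate 2. Anpep (chr7:79821803-79861059, minus strand) encodes aminopeptidase N, or CD13, which pericytes share with myeloid cells and fibroblasts. It was at 0.34, 28.8 and 0.85 CPM under Apelin depletion and from 0.99 to 18.1 CPM, median 2.51, in the wild-type libraries. Anpep was thus highest in an Apelin-depleted library, replicate 2. The fibroblast markers summed to 646 CPM in that library, nearly all of it Pdpn, Dcn and Thy1 at 318, 159 and 156 CPM. The collagens Col1a1, Col1a2 and Col3a1 were at 7.39, 0.98 and 1.97 CPM there. Among the Apelin-depleted libraries this was the highest value of Col1a1 and the lowest of Col1a2 and Col3a1. The log2 fold change of Anpep was 0.72 (SE 1.24) over all libraries and -3.31 without Apelin-depleted replicate 2, so its direction rested on that library.

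The contractile and channel genes differed in how widely they were detected in tumor ECs. Acta2 (chr19:34241090-34255590, minus strand) encodes α-smooth muscle actin. It was at 27.0, 16.3 and 24.5 CPM under Apelin depletion and from 12.2 to 61.5 CPM, median 20.9, in the wild-type libraries, so it was detected throughout. Des (chr1:75360329-75368579, plus strand) encodes the intermediate filament desmin. It was at 0.68, 0.21 and 2.80 CPM under Apelin depletion and from 0 to 23.2 CPM, median 1.01, in the wild-type libraries, with 60.6% of its summed CPM in Apelin wild-type replicate 2. Abcc9 (chr6:142587862-142702315, minus strand) encodes SUR2, the regulatory subunit of an ATP-sensitive potassium channel of pericytes and smooth muscle. It was at 22.3, 9.92 and 30.3 CPM under Apelin depletion and from 7.12 to 71.2 CPM, median 23.7, in the wild-type libraries. The groups overlapped for all 3 genes, with log2 fold changes of -0.31 (SE 0.56) for Acta2, -2.22 (SE 1.82) for Des and -0.43 (SE 0.66) for Abcc9. Single libraries set the direction of Acta2, at 0.09 without Apelin wild-type replicate 5, and of Abcc9, at 0.12 without Apelin wild-type replicate 3. By limma voom the direction turned for Des (0.10) and Acta2 (0.11), as it did with the replicate number as a block (0.32 and 0.01). Without Apelin wild-type replicate 2 Des was under the filter of edgeR, and DESeq2, which gave -2.25 with that library, gave -0.88.

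**Figure D2:**
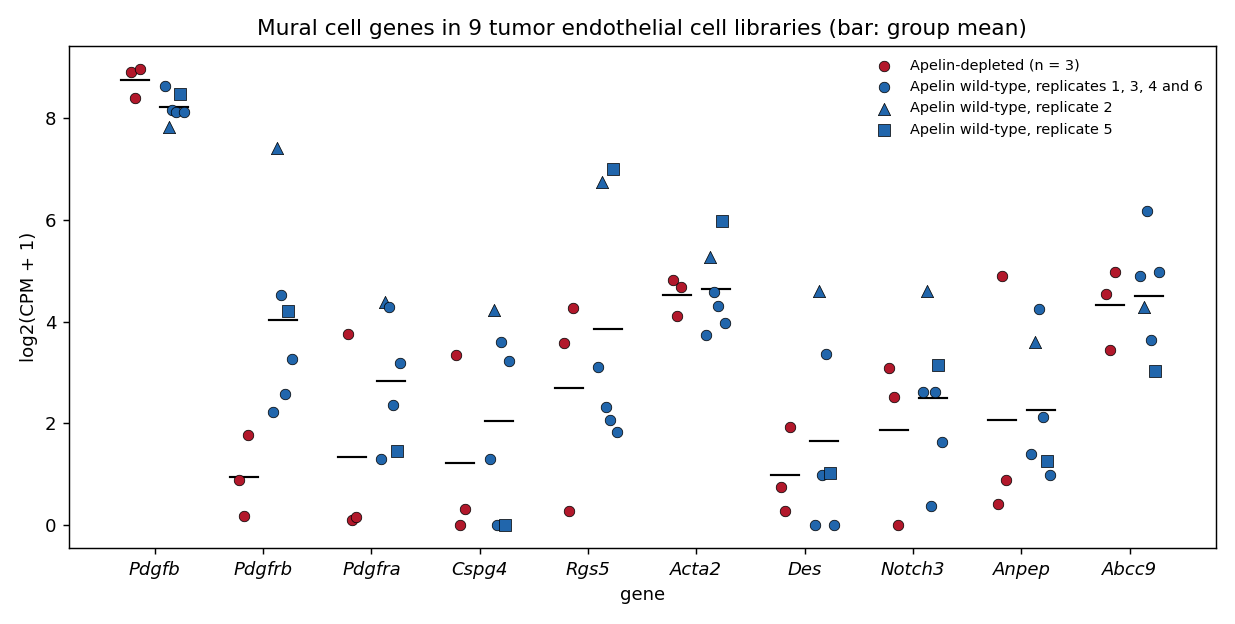
log2(CPM + 1) of the 10 genes in 3 Apelin-depleted (red) and 6 Apelin wild-type (blue) tumor libraries, with the mean of each group as a bar and Apelin wild-type replicates 2 (triangle) and 5 (square) set apart. Pdgfb forms a narrow band, whereas Pdgfrb is lower in all 3 Apelin-depleted libraries and the other 8 genes overlap between the groups.

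Of the 10 genes, 5 were highest in Apelin wild-type replicate 2 (Pdgfrb, Pdgfra, Cspg4, Des and Notch3), a library that was highest for 11.2% of all genes tested. The fibroblast collagens stood out in the same library, with Col1a1 at 882 CPM against 3.40 to 40.3 CPM elsewhere. The endothelial markers were not depleted there, at 9708 CPM in sum. In replicate 5, where Rgs5 and Acta2 peaked, the fibroblast markers summed to 239 CPM. Between the groups the fibroblast markers had a median log2 fold change of -4.77 over 8 tested genes, 6 lower, 2 higher (Thy1 and Pdpn) and none called, against -0.03 for all genes. This median rested on Apelin wild-type replicate 2, without which it was 0.01 over 6 tested genes, 3 lower and 3 higher. Col3a1, a fibrillar collagen that did not overlap between the groups, had -4.64 (SE 1.69, edgeR adjusted p = 0.981) with that library and -2.97 (SE 0.75, edgeR adjusted p = 0.674) without it. Col1a1 had -4.90 (SE 2.40, edgeR adjusted p = 1.0) with it and -1.43 (SE 0.88, edgeR adjusted p = 0.999) without it. The part of these other transcripts in the group difference of Pdgfrb was not tested.

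To set each gene against the endothelial content of its library, log2 levels were taken relative to Pecam1. Pdgfrb remained lower in the Apelin-depleted libraries, by -3.19 on the log2(CPM + 1) scale (exact permutation test, two-sided, p = 0.0238, 1 of 10 such tests), which is the smallest p that the 84 splits of 3 against 6 libraries allow. For Pdgfb the difference was 0.42 (exact permutation test, p = 0.286). For the remaining 8 genes the exact p lay between 0.214 and 0.857. Replacing Pecam1 by the mean of 12 endothelial markers gave -3.39 for Pdgfrb and 0.21 for Pdgfb, with exact permutation p of 0.0238 and 0.333.

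Levels of the 10 genes were compared with each other per kilobase of transcript. In the Apelin wild-type tumor libraries Pdgfb led with a level of 103 ± 20.5 CPM per kb (SD, n = 6), and its lowest library lay above the highest library of every other member. Rgs5 followed at 23.0 ± 32.2, Acta2 at 10.9 ± 7.26, Pdgfrb at 6.91 ± 11.9 and Abcc9 at 3.81 ± 3.16 CPM per kb. Des, Anpep, Pdgfra, Notch3 and Cspg4 ranged from 1.88 down to 0.80 CPM per kb. From Rgs5 down, each gene overlapped the next in its range. In the Apelin-depleted libraries Pdgfb was again at the top, at 148 ± 30.2 CPM per kb (SD, n = 3), and the other 9 ran down to a mean of 0.21 ± 0.22 CPM per kb for Pdgfrb. From Acta2 down, each gene overlapped the next there too.

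Whether the mural genes rise and fall together from library to library was asked with the 45 pairs of the 10 genes over the 9 tumor libraries. None passed (0 of 45, adjusted over the 45). The pair nearest to passing was Rgs5 and Acta2, with r = 0.84 (exact permutation p = 0.00772, adjusted p = 0.347) and rho = 0.80 (exact permutation p = 0.0138, adjusted p = 0.504). Within the 6 wild-type libraries r was 0.87, and without the 2 libraries farthest from the median of Rgs5 it was 0.46, so the relation rests on those libraries. Pdgfb and Pdgfrb had r = -0.69 (exact permutation p = 0.031, adjusted p = 0.667) and rho = -0.63 (exact permutation p = 0.076, adjusted p = 0.684). For that pair r was -0.67 within the wild-type libraries and -0.50 without the 2 farthest libraries.

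The genes most like each key member over the 9 tumor libraries, among 9285 genes with a mean of at least 10 CPM, gave different company to ligand and receptor. For Pdgfrb the 5 highest were Col3a1 (r = 0.95), Rnf25 (0.95), Prkd3 (0.94), Col6a2 (0.92) and Col5a3 (0.92), 3 of them fibrillar or microfibrillar collagens and all highest in Apelin wild-type replicate 2. For Pdgfb they included Cmip (0.93), Rbbp8 (0.91), Thsd7a (0.91) and Nsd1 (0.88), each highest in an Apelin-depleted library. For Rgs5 they were Clip1 (0.94), Gstm2 (0.94), Zkscan1 (0.93), Cep164 (0.92) and Rabgap1 (0.92), of which Zkscan1 was highest in wild-type replicate 2 and the others in replicate 5. With 9 points and this many genes, such values are a description only.

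In the sprouts Pdgfb followed the group. It was at 32.0 and 37.2 CPM in the STOP libraries and at 93.0 and 92.3 CPM in the GO libraries. The replicates of each group lay close together and the groups did not overlap, which was so for 2 of the 10 genes (Pdgfb and Anpep) and for 60.6% of all genes tested. The log2 fold change was -1.42 (SE 0.15, edgeR adjusted p = 0.00437), so Pdgfb was called lower under STOP. Of the 10 genes, 1 was called by edgeR in the sprouts, against 3.03% of all genes called lower and 0.852% called higher. Pdgfb was also called with each library left out in turn, where its log2 fold change ranged from -1.55 to -1.30.

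The fall of Pdgfb stood beside a larger median fall of the endothelial markers. Of the 12, all were lower under STOP and 11 were called, with a median log2 fold change of -1.96 against 0.01 over all genes tested. Kdr, the VEGF receptor of ECs, had a log2 fold change of -1.95 (SE 0.20), and Cdh5, the endothelial cadherin, one of -1.98 (SE 0.27). Robo4 was called but fell less than Pdgfb, at -1.16 (SE 0.20). Pecam1, the marker not called, also fell less than Pdgfb. It was at 139 and 169 CPM under STOP against 264 and 273 CPM under GO, with a log2 fold change of -0.80 (SE 0.15, edgeR adjusted p = 0.0244). Pecam1 encodes the antigen of the sort and is also expressed by mouse embryonic stem cells.

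Counts of Pdgfb came to 23.1% and 22.0% of those of Pecam1 under STOP, and to 35.2% and 33.8% under GO. Against the summed counts of the 12 endothelial markers they came to 4.97% and 4.11% under STOP and to 3.45% and 3.57% under GO. Relative to Pecam1 the log2 level of Pdgfb was lower under STOP, by -0.59, and relative to the mean of the 12 markers it was higher, by 0.43. The direction per unit of endothelial RNA thus depended on the reference, and no test of it was made with 2 libraries against 2. The part of the endothelial share of the libraries in the fall of Pdgfb was not tested.

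Of the 9 other genes, 8 overlapped between the groups, Anpep being the exception. Pdgfrb was at 24.5 and 83.4 CPM under STOP and at 129 and 49.4 CPM under GO. From lowest to highest its libraries ran STOP replicate 1, GO replicate 2, STOP replicate 2 and GO replicate 1. Exactly this order was found for 7 of the 10 genes (Pdgfrb, Pdgfra, Cspg4, Rgs5, Acta2, Des and Abcc9) and for 5.5% of all genes tested. STOP replicate 2 and GO replicate 1, which belong to different groups, were thus the high libraries for these 7 genes.

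Pdgfra was at 9.55 and 47.3 CPM under STOP and at 85.8 and 28.5 CPM under GO, an 8.98-fold range. Cspg4 was at 3.18 and 20.3 CPM under STOP and at 33.2 and 10.7 CPM under GO, the widest range of the 10 genes in the sprouts at 10.4-fold. Rgs5 was at 5.15 and 23.6 CPM under STOP and at 34.8 and 13.1 CPM under GO. In each of these genes both groups held a high and a low library. Acta2 was at 26.6 and 75.3 CPM under STOP and at 136 and 32.9 CPM under GO. Des was at 11.9 and 49.9 CPM under STOP and at 58.1 and 18.8 CPM under GO. Abcc9 was at 2.03 and 6.03 CPM under STOP and at 13.3 and 5.33 CPM under GO. None of these 7 genes was called, with log2 fold changes from -1.23 (SE 0.67, Abcc9) to -0.33 (SE 1.07, Des) and edgeR adjusted p from 0.304 to 0.879. These sizes rested on single libraries. For Abcc9 the range was -2.22 (without STOP replicate 2) to -0.42 (without GO replicate 1). For Pdgfra it was -2.6 to -0.01 without the same libraries. The direction of Pdgfrb, Cspg4, Rgs5, Acta2 and Des turned without GO replicate 1, to 0.12, 0.12, 0.13, 0.62 and 0.71.

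The fibroblast markers split the libraries in the same way. They summed to 533 and 3047 CPM under STOP and to 3024 and 668 CPM under GO, and Col1a1 was at 270 and 1367 CPM under STOP and at 1588 and 306 CPM under GO. The endothelial markers did not, since both GO libraries were above both STOP libraries. The part of fibroblast-like cells in the spread of the mural genes was not tested.

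Notch3 and Anpep stood apart from the other mural genes in the sprouts. Notch3 was at 185 and 160 CPM under STOP and at 189 and 146 CPM under GO, a 1.29-fold range, with a log2 fold change of 0.04 (SE 0.16, edgeR adjusted p = 0.904). Anpep was at 24.6 and 24.9 CPM under STOP and at 20.8 and 21.1 CPM under GO, a 1.2-fold range, with a log2 fold change of 0.24 (SE 0.18, edgeR adjusted p = 0.429). Both were nearly flat over libraries in which Pdgfrb changed 5.28-fold. In the deposited TPM, a unit that corrects for transcript length, Notch3 was at 29.4 ± 3.41 under STOP (SD, n = 2), the highest mean of the 10 genes, and at 32.0 ± 8.5 under GO (SD, n = 2). Acta2 led under GO at 53.6 ± 48.6 TPM and Pdgfb followed at 48.7 ± 3.83 TPM, against 16.1 ± 1.58 TPM under STOP. Neighbours in the order of TPM overlapped in their ranges, except Pdgfb above Notch3 and Anpep above Cspg4 under GO.

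**Figure D3:**
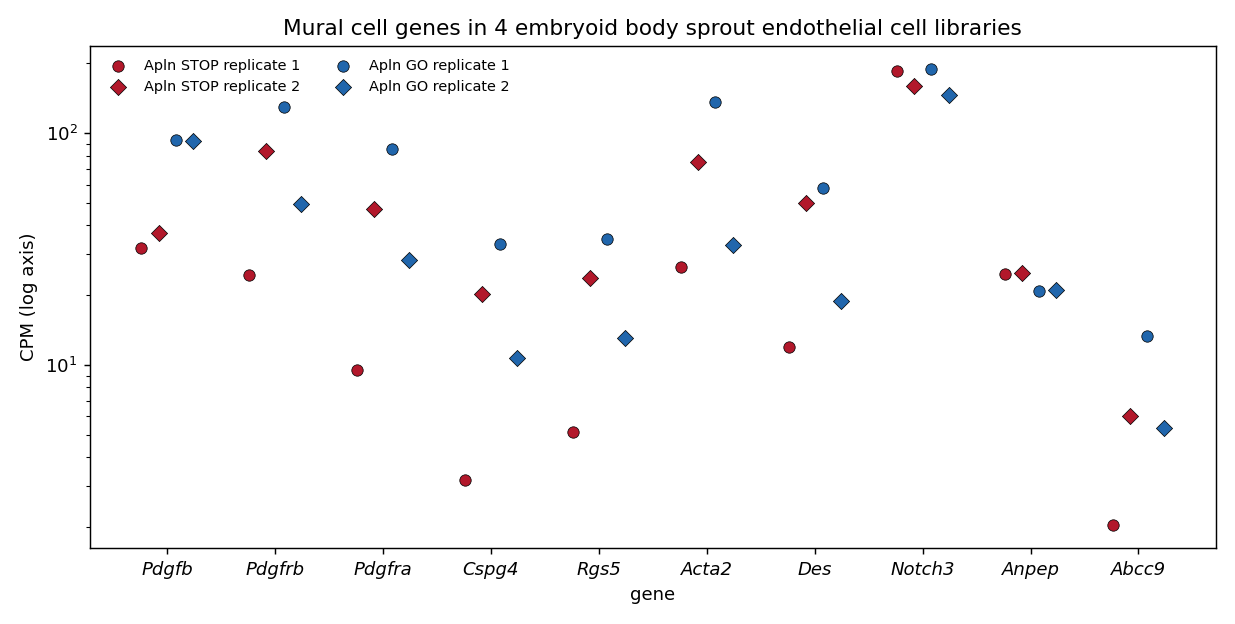
CPM on a log axis of the 10 genes in the 2 Apln STOP (red) and 2 Apln GO (blue) sprout libraries, circles for replicate 1 and diamonds for replicate 2. Pdgfb separates by colour at 32.0 and 37.2 against 93.0 and 92.3 CPM, while 7 genes share the order STOP 1, GO 2, STOP 2, GO 1.

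Promoter sequences (250 bases before to 50 after the annotated start, RefSeq, GRCm38.p6) were matched for 8 of the 10 genes, Pdgfb and Pdgfrb not among them. Both strands were searched for the CArG box that serum response factor binds in contractile genes, the core TGGGAA of RBPJ, the DNA-binding partner of Notch receptors, the E-box CACGTG and the SMAD palindrome GTCTAGAC. The core of RBPJ was found in 2 of the 8, Acta2 and Abcc9, and in 25.6% of all 32851 promoters. The other 3 motifs were in none of the 8, and in 1.63%, 7.15% and 0.213% of all promoters. The CArG box was searched with no mismatch, and no match says only that these letters are not in the window. With up to 1 mismatch, a search added after the values were seen, it was in Cspg4 and Acta2 (2 of the 8) and in 21.1% of all promoters, and 1 of the matches in Acta2 overlaps the core of RBPJ. The 2 windows that hold the core of RBPJ are shown. Capitals mark the core, which begins 27 bases before the start in Acta2 (chr19:34255324-34255623, minus strand) and 221 bases before it in Abcc9 (chr6:142702225-142702524, minus strand).
Acta2: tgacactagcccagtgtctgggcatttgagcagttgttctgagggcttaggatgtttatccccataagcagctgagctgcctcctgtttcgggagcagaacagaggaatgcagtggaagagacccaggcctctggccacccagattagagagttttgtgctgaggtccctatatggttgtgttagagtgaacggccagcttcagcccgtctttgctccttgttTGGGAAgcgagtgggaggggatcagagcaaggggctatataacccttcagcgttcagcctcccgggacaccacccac
Abcc9: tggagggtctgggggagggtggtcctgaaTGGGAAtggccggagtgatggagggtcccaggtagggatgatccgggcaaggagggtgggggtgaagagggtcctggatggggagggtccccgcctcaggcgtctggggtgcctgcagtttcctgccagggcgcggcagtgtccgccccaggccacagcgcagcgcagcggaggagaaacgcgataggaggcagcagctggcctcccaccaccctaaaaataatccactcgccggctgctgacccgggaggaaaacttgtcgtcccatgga
Such a match is a description of the letters and not of a site in use.

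The effects in tumor and sprouts were set side by side and their difference was tested in a joint fit. For Pdgfb the log2 fold change was 0.53 in the tumor ECs and -1.42 in the sprouts, and the difference was 1.9 (SE 0.41, edgeR adjusted p = 0.133). For Pdgfrb it was -5.05 in the tumor ECs and -0.74 in the sprouts, with a difference of -4.38 (SE 2.17, adjusted p = 1.0) that was -2.65 without Apelin wild-type replicate 2. None of the 10 differences passed (0 of 10 by edgeR, with 1 at an unadjusted p under 0.05), against 0.00634% of all genes. The 8 other differences lay between -1.94 (Des) and 0.74 (Abcc9), with standard errors of 0.96 to 2.73.

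**Figure D4:**
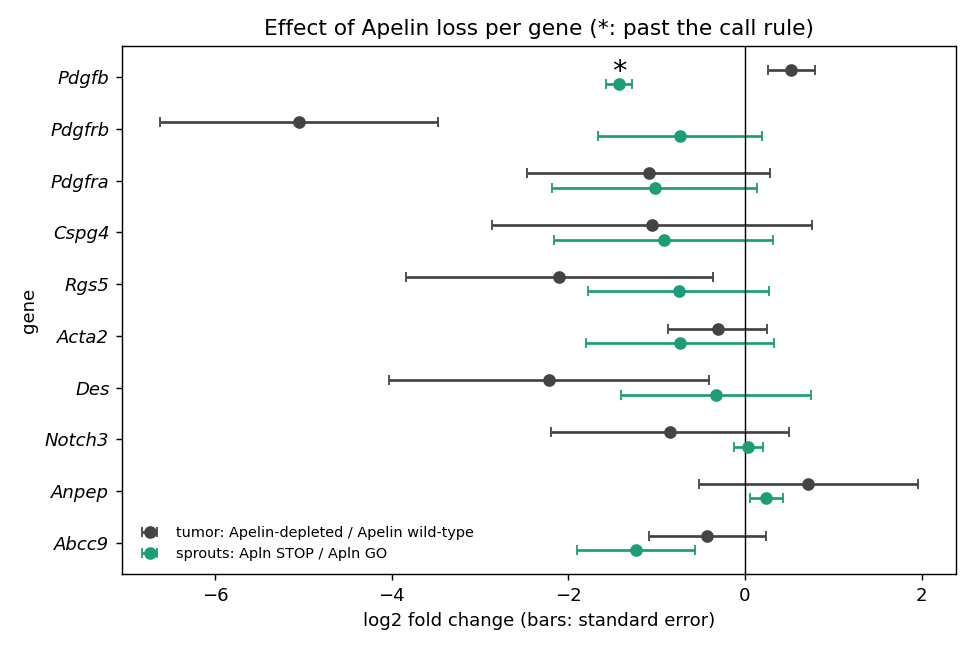
Log2 fold change with its standard error for the 10 genes, Apelin-depleted over Apelin wild-type tumor ECs (grey) and Apln STOP over Apln GO sprout ECs (green), with an asterisk on the call by edgeR. Pdgfb in the sprouts, at -1.42, carries the only asterisk, and the largest negative value is that of Pdgfrb in the tumor ECs, at -5.05.

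Among 20 further mural cell genes, 15 were tested in tumor ECs, 8 lower and 7 higher in the Apelin-depleted libraries, and none was called by edgeR (0 of 15, with 2 at an unadjusted p under 0.05). Their median log2 fold change was -0.03, as was that of all genes. The highest in mean CPM, with no correction for length, were Mcam, which encodes CD146, an adhesion molecule of both endothelial and mural cells, with a log2 fold change of -0.06 (SE 0.38), and Smtn, which encodes smoothelin, with 0.01 (SE 0.43). The members themselves had a median of -0.95, with 8 of 10 lower. Their median was -0.42 without Apelin wild-type replicate 2, -0.52 without Apelin-depleted replicate 3 and -1.78 without Apelin-depleted replicate 1. In the sprouts 15 of 17 tested genes of this list were lower under STOP and 1 was called, Mcam, at 92.6 and 136 CPM against 364 and 316 CPM (log2 fold change -1.57, SE 0.20, edgeR adjusted p = 0.00999). Smtn had a log2 fold change of -0.64 (SE 0.14). The median was -0.68, and that of the 10 members was -0.74. Both turned without GO replicate 1, to 0.14 and 0.13, and the call of Mcam was lost. They were -0.23 and -0.10 without STOP replicate 1, -1.19 and -1.35 without GO replicate 2, and -1.90 and -1.80 without STOP replicate 2.

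A list of 20 genes with which ECs recruit and hold pericytes, Eng and Tek among them, was described in the same way. In tumor ECs 14 of 17 tested genes were higher in the Apelin-depleted libraries with a median of 0.40, and none was called by edgeR (0 of 17, with 1 at an unadjusted p under 0.05). The endothelial markers moved alike, with 11 of 12 higher, a median of 0.33 and none called by edgeR (0 of 12, with 1 at an unadjusted p under 0.05), and their part in these values was not tested. Eng, which encodes CD105, the second antigen of the sort, had a log2 fold change of 0.52 (SE 0.28), and S1pr1, a sphingosine 1-phosphate receptor that strengthens endothelial junctions, had 0.45 (SE 0.30). In the sprouts 19 of 20 genes were lower under STOP with a median of -1.01, and 4 were called. These were Tgfb1, a ligand that drives mural differentiation (-1.86, SE 0.19), Tek, the angiopoietin receptor (-1.84, SE 0.19), Eng (-1.06, SE 0.13) and S1pr1 (-2.05, SE 0.25). Their edgeR adjusted p lay between 0.00437 and 0.0117. The calls of this list were 2 without GO replicate 1, 3 without STOP replicate 1 and 7 without GO replicate 2 or without STOP replicate 2. Hspg2, which encodes the matrix proteoglycan perlecan and had the highest mean CPM of the list, had a log2 fold change of -0.68 (SE 0.19), and Furin, a protease that processes growth factor precursors, had -0.83 (SE 0.15).

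Markers of other cells were checked beside these results. In tumor ECs none of the fibroblast (8 tested, 6 lower), epithelial (2), leukocyte (8), muscle (4) or primitive endoderm (5) markers was called by edgeR, with 3 of these 27 genes at an unadjusted p under 0.05, and none of the pluripotency markers passed the filter. Leukocyte markers were high in Apelin-depleted replicate 1 and Apelin wild-type replicate 4, at 1007 and 618 CPM in sum, and between 49.0 and 172 CPM in the other libraries. The sort had left out cells stained for CD45, the common leukocyte antigen. Neither library was the highest for any of the 10 genes. In the sprouts 2 of 9 muscle markers (Actc1 and Tnnt2, genes of cardiac muscle) and 2 of 9 primitive endoderm markers (Gata4 and Afp) were called lower under STOP. Of 6 pluripotency markers all were higher under STOP and 1, Dppa5a, was called. None of the fibroblast, epithelial or leukocyte markers was called there (0 of 22 by edgeR, with 3 at an unadjusted p under 0.05).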

How the data were processed

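For the tumor ECs the authors counted reads per gene with featureCounts (Subread 1.6.2) and deposited whole-number counts without normalization. The methods name STAR as the aligner, and the submitters' processing notes list Bowtie2 2.3.4.1, so the aligner of these files is uncertain. For the sprout ECs the authors aligned with STAR 2.5.0a, counted with HTSeq 0.6.1p1 and deposited whole-number counts. From the same libraries the authors deposited RSEM 1.2.25 expected counts, used here rounded as an alternative, and TPM. Build mm10 was used throughout. HTSeq left out reads with several alignments.

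After TMM normalization the counts entered the robust quasi-likelihood F-test of edgeR 4.0.16 (R 4.3.3), with genes kept by filterByExpr at a minimum of 10, separately for tumor and sprouts, with Benjamini-Hochberg adjustment over all genes tested. The standard error (SE) of an edgeR log2 fold change was derived from the test, as its absolute value over the square root of F. CPM used TMM library sizes, log2 values a pseudocount of 1. Lines tallying unassigned reads were left out. Transcript lengths for CPM per kb were those in the RSEM tables. Gene coordinates came from GENCODE for GRCm38. The correlations and the levels relative to Pecam1 were tested by exact permutation with scipy 1.17.1. The fits were tested on simulated counts.

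Alternatives were DESeq2 1.42.0, DESeq2 size factors, other filters, no fold threshold, limma 3.58.1 voom with quality weights (tumor), RSEM counts (sprouts), the replicate number as a block, and each library left out. A crossed block, DESeq2 without 1 library and the list medians without each library were added after the values were seen. The 10 genes and the 9 other lists were chosen with earlier results of these data known. Named genes were all members, from the mural and endothelial recruitment lists up to 4 called genes of lowest p and the 2 of highest mean CPM, the 5 genes most correlated with Pdgfb, Pdgfrb and Rgs5 (1 of those for Pdgfb is not reported here), and Pecam1, Eng and Apln. Other marker genes, Kcnj8 and the ligand genes in the closing section were named after their values were seen.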

Additional observations from a re-analysis of the deposited data

Results flagged for a closer look

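Within the 6 Apelin wild-type tumor libraries, 3 of the 10 genes had a library far from the others by Dixon's test at the 95% level (3 of 10), against 15.7% of all 13073 genes tested in these libraries. Chance gives it in about 1 of 20 groups of normally distributed values. Pdgfrb was at 168 CPM in replicate 2, and the next library was at 22.1 CPM. Notch3 was at 23.3 CPM in replicate 2, with the next at 7.82 CPM. Abcc9 was at 71.2 CPM in replicate 3, with the next at 30.3 CPM.

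For Pdgfb all 3 Apelin-depleted tumor libraries lay above the mean of their wild-type group and both STOP libraries lay below the mean of the GO group. The tumor log2 fold change minus the sprout log2 fold change was 1.9, which did not pass the adjusted test of the difference (edgeR adjusted p = 0.133).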

How the results depend on the processing

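In tumor ECs 0 of the 10 genes were called in each alternative run with edgeR or limma, and 1, Pdgfrb, by DESeq2, also 1 without Apelin wild-type replicate 2. Over all genes the tumor calls were 1 by edgeR, 116 by DESeq2 and 16 without the filter. The same-numbered libraries did not deviate together (r of -0.07, 0.06 and -0.14 in the tumor set and -0.43 in the sprouts), so the numbers were not taken as pairs. With the replicate block the sprout calls went from 565 to 44 genes and from 1 to 0 of the 10 (Pdgfb at -1.43, edgeR adjusted p = 0.0529), and the tumor calls from 1 to 2 genes. With the replicate block crossed, 1235 sprout genes and 4 of the 10 were called. The block turned the tumor log2 fold changes of Cspg4 to 0.62, Acta2 to 0.01, Des to 0.32 and Anpep to -1.79. It moved Pdgfra to -5.29, Rgs5 to -0.42, Notch3 to -1.45 and Abcc9 to -0.84. Limma voom with quality weights turned Acta2 to 0.11, Des to 0.10 and Anpep to -0.74, and moved Pdgfra to -3.15, Cspg4 to -2.25, Notch3 to -1.79 and Rgs5 to -1.29. The cause was not tested.

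Leaving out a library, sprout calls over all genes were 148 without STOP replicate 1, 154 without GO replicate 1 and 887 without GO replicate 2. The count of members lower relative to Pecam1 ranged from 0 to 1. It was 0 whenever an Apelin-depleted library was left out, where 2 against 6 libraries cannot reach 0.05. In tumor ECs the values with one sign throughout ranged from -6.39 to -3.31 (Pdgfrb), -6.39 to -0.52 (Pdgfra), -5.69 to -0.42 (Cspg4), -3.69 to -1.7 (Des), -2.95 to -1.35 (Rgs5) and -1.61 to -0.01 (Notch3, nearest 0 without wild-type replicate 2). The sign turned for uncalled genes, with ranges of -0.46 to 0.09 (Acta2, positive without wild-type replicate 5), -3.31 to 1.43 (Anpep, negative without Apelin-depleted replicate 2) and -0.81 to 0.12 (Abcc9, positive without wild-type replicate 3) in tumor ECs. In the sprouts the ranges were -1.89 to 0.12 (Pdgfrb), -2.81 to 0.12 (Cspg4), -2.24 to 0.13 (Rgs5), -1.69 to 0.62 (Acta2), -1.71 to 0.71 (Des) and -0.13 to 0.24 (Notch3), and without a turn of sign -2.6 to -0.01 (Pdgfra) and -2.22 to -0.42 (Abcc9). For the tumor minus sprout difference they were -5.47 to 1.37 (Pdgfra), -4.89 to 1.64 (Cspg4), -2.29 to 0.04 (Rgs5), -1.0 to 1.29 (Acta2), -3.58 to 1.14 (Anpep) and -0.09 to 1.68 (Abcc9), and without a turn -5.78 to -2.65 (Pdgfrb), -3.49 to -0.56 (Des) and -1.66 to -0.09 (Notch3). Des was under the filter without wild-type replicate 2 or 4, and DESeq2 without wild-type replicate 2 gave -0.88. The fibroblast marker median in tumor ECs ranged from -5.30 to 0.01, the latter without wild-type replicate 2. In tumor ECs the median of the 10 genes ranged from -1.78 to -0.42, of the other mural genes from -0.45 to 0.23, of the recruitment genes from 0.28 to 0.54 and of the endothelial markers from 0.18 to 0.47. In the sprouts these were -1.80 to 0.13, -1.90 to 0.14, -1.32 to -0.70 and -2.27 to -1.67. Counts of 0 to 20 for several mural genes in 100-cell libraries leave their fold changes imprecise.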

Other observations

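The partner of Abcc9 in the ATP-sensitive potassium channel is Kcnj8, which encodes the pore subunit Kir6.1. In tumor ECs Kcnj8 was at 16.5, 12.2 and 16.9 CPM in the Apelin-depleted libraries, and in the wild-type libraries it ran from 13.2 to 122 CPM. Both genes were highest in Apelin wild-type replicate 3. The other mural genes were mixed in that library. Rgs5 was at 4.03 CPM, Des at 0.98 CPM and Notch3 at 0.29 CPM, and Cspg4 had 0 counts. Pdgfrb, Pdgfra and Anpep were at 22.1, 18.5 and 18.1 CPM, each the next value under its highest library, and Acta2 was at 22.9 CPM. The log2 fold change of Kcnj8 was -1.63 (SE 0.61, edgeR adjusted p = 0.957). In the sprouts Kcnj8 was at 2.71 and 10.3 CPM under STOP and at 14.8 and 5.89 CPM under GO, the library order of Pdgfrb.

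The other ligand genes of the family were measured as well, and no difference between genes was tested. Pdgfa, a ligand of the Pdgfra receptor, had a log2 fold change of -0.31 (SE 0.39) in tumor ECs and 0.03 (SE 0.30) in the sprouts. Pdgfd, whose product binds the Pdgfrb receptor, had 0.49 (SE 0.39) and -0.68 (SE 0.51). Pdgfc, which encodes a further ligand of the Pdgfra receptor, was under the filter in tumor ECs. In the sprouts it was at 6.30 and 6.11 CPM under STOP and at 15.7 and 8.31 CPM under GO, a log2 fold change of -0.96 (SE 0.34, edgeR adjusted p = 0.132). Outside this family, Hbegf encodes a heparin-binding growth factor. It was at 415, 255 and 724 CPM in the Apelin-depleted libraries and from 154 to 405 CPM in the wild-type libraries. The groups overlapped, and the log2 fold change was 0.91 (SE 0.35, edgeR adjusted p = 0.957). In the sprouts it was -0.92 (SE 0.21, edgeR adjusted p = 0.041).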
